A study of Mus musculus with 15 samples.

Results

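The report concerns 38 interferon-stimulated genes, described across 5 groups of mature mouse thymocytes. They are the rows of the deposited count table that carry the listed symbols, and all 38 were found among 53762 genes. All 38 also passed the filter on low counts, as did 16550 genes in all. RNA sequencing was done on sorted thymic T cells of C57BL/6 mice from mixed bone marrow chimeras, in which irradiated hosts receive mutant and wild-type marrow together. There were 5 groups of 3 libraries. The first group was Thpok-RKF+ CD4+CD8+ and the second its Thpok-RKF- counterpart with the same surface markers. Both came from CD45.2+ donors that were Thpok fl/fl and Runx3 fl/dYFP and carried Cd4-Cre, a recombinase made in developing T cells. The labels name Thpok-RKF as the difference between these groups and give no further description of it. Thpok-RKF- CD8 SP cells (single positive: CD4-CD8+) carried the same alleles as the second group. All 3 mutant groups developed in B2m-/- hosts, which lack MHC class I. WT CD4 SP cells (CD4+CD8-) were the CD45.1+CD45.2+ wild-type cells of chimeras in B2m-/- hosts. WT CD8 SP cells were CD45.1+CD45.2+ wild-type cells from I-Ab-/- hosts, which lack MHC class II. Every group was sorted as CD44 low, TCRb high, CD24 low and CD69 low, the gate of late mature thymocytes. Whether the 3 libraries of a group stem from different animals is not stated, so the tests see only the spread between these libraries, which may be technical.

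Interferons bind receptors coupled to the kinases JAK1, TYK2 and JAK2. Type I interferon drives a complex that contains STAT2 and IRF9 to the interferon-stimulated response element of target genes, and interferon gamma acts through the gamma-activated site. The induced genes encode sensors of viral nucleic acid, enzymes that block viral RNA or its translation, and feedback regulators such as USP18. Mature thymocytes are known to respond to interferon made within the thymus late in their maturation, without infection.

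RefSeq promoter windows (GRCm38.p6, from 250 bases before to 50 after a gene's start) were matched by symbol for 29 of the 38 genes, in 36 windows. The response element was searched as its core GAAANNGAAA on both strands, and the gamma-activated site as TTCNNNGAA, which is its own reverse complement. The core was present in 16 of the 36 member windows (44.4%), against 3.44% of all 32851 windows in the table. The gamma-activated site was present in 8 member windows (22.2%), against 8.3% of all windows. In 1 place, in the Bst2 window, sites of the 2 motifs overlapped. The 6 promoters below are those of the genes with a core that had the largest median absolute log2 fold change over the 7 group comparisons. Irf1, which has no core in its windows, is shown for its gamma-activated site. Capitals mark the core, read as its reverse complement where it lies on the other strand (or, in Irf1, the gamma-activated site), and each line runs from 250 bases to 1 base before the start, except for Ifih1.
Oas1a, chr5:120907526-120907775, minus strand: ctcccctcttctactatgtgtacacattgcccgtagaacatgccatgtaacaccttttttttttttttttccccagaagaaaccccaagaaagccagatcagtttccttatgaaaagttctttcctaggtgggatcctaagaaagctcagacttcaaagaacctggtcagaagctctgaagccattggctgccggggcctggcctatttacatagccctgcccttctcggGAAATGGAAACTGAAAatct
Ifit3b, chr19:34607707-34607956, plus strand: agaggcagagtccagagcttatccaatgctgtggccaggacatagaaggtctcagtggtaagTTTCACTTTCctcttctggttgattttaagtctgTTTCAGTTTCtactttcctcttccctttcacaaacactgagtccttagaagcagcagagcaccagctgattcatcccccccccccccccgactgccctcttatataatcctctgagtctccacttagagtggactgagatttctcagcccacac
Ifih1, chr2:62646206-62646235, minus strand, 30 bases behind the start: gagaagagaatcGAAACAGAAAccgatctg
Rsad2, chr12:26456453-26456702, minus strand: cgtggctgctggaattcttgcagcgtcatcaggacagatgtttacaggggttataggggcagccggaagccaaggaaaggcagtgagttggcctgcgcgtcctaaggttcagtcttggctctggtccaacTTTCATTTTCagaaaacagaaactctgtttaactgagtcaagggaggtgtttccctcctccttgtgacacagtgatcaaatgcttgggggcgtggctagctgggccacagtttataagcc
Stat2, chr10:128270248-128270497, plus strand: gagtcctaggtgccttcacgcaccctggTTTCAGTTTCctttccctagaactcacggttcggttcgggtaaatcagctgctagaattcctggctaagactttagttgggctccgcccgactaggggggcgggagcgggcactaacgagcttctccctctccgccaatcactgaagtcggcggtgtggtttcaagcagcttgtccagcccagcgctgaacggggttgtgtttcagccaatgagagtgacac
Isg15, chr4:156200819-156201068, minus strand: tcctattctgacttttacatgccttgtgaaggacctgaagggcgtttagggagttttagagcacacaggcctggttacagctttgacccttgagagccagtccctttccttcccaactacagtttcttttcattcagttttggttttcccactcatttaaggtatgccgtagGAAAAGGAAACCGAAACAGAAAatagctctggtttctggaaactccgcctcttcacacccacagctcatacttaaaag
Irf1, chr11:53769764-53770013, plus strand: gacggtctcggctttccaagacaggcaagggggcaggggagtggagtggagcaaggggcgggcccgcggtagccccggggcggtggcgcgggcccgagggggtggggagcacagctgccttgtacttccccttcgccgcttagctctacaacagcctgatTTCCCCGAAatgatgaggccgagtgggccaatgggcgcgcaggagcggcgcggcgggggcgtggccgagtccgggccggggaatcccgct
Isg15 held 3 overlapping cores, Oas1a 2 overlapping cores and Ifit3b 2 separate ones, whereas Rsad2, Stat2 and Ifih1 held 1 each. A match of letters is a description of the window and not evidence of a bound factor. The median log2 fold change of WT CD4 SP over WT CD8 SP was 0.603 for the 15 genes with a core, 0.728 for the 14 without one and 0.272 for the 9 without a window.

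Reads assigned to genes numbered between 37311823 and 48607260 per library. Values below are CPM, read counts scaled to a common library size, with library sizes scaled by the TMM method. Even the gene with the fewest reads, Mx1, had 4563 reads over the 15 libraries. Zbtb7b, which encodes Thpok, followed the labels: it had 768 to 823 CPM in Thpok-RKF+ CD4+CD8+ libraries, at most 2.95 CPM in the Thpok-RKF- groups, 27.4 to 79.1 CPM in WT CD4 SP and at most 0.376 CPM in WT CD8 SP. Libraries numbered 1 stood apart from numbers 2 and 3 in several groups, and the calls that changed without them are given in each comparison. T cell receptor genes were abundant in every library, with Cd3e between 572 and 841 CPM. Not all were even: Cd247 had 2375 to 2772 CPM in Thpok-RKF+ CD4+CD8+ libraries and 400.5 to 559 CPM in the other groups. Of the 7 T cell markers listed, 5 were lower and 0 higher in libraries numbered 1 (edgeR, adjusted p below 0.05). Of all genes 5.53% were lower there. In bulk RNA, fewer cells that express a gene and less RNA per cell cannot be told apart.

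Most of the 38 genes had their highest level in WT CD4 SP thymocytes. The WT CD4 SP group had the highest mean of the 5 groups for 25 of the 38 genes and the lowest for 4, and Thpok-RKF- CD8 SP had the lowest mean for 15. The shares of all genes with the highest or lowest mean in these groups were not determined. For 13 genes (Irf7, Irf9, Stat2, Ifih1, Ifit3, Ifit3b, Oas2, Oasl2, Isg20, Rtp4, Igtp, Xaf1 and Ifi27l2a) the 3 WT CD4 SP libraries lay above all 12 libraries of the other groups, which 3.5% of all tested genes did. Only Mx1 lay below all of them in WT CD4 SP (3.37% of all genes). Measured as the median over the 38 genes of the log2 deviation from each gene's mean, WT CD4 SP libraries stood at 0.342, 0.476 and 0.596, and the other 12 libraries lay between -0.398 and 0.0575. By this measure Thpok-RKF+ CD4+CD8+ libraries stood at -0.158, 0.0232 and 0.0217, Thpok-RKF- CD4+CD8+ at -0.0934, -0.0871 and -0.0911 and Thpok-RKF- CD8 SP at -0.0589, -0.189 and -0.103, against -0.398, -0.0407 and 0.0575 in WT CD8 SP. The mutant libraries lay within the WT CD8 SP range only because of WT CD8 SP replicate 1: without it, all libraries of both Thpok-RKF- groups and Thpok-RKF+ CD4+CD8+ replicate 1 lay below that range.

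**Figure D1:**
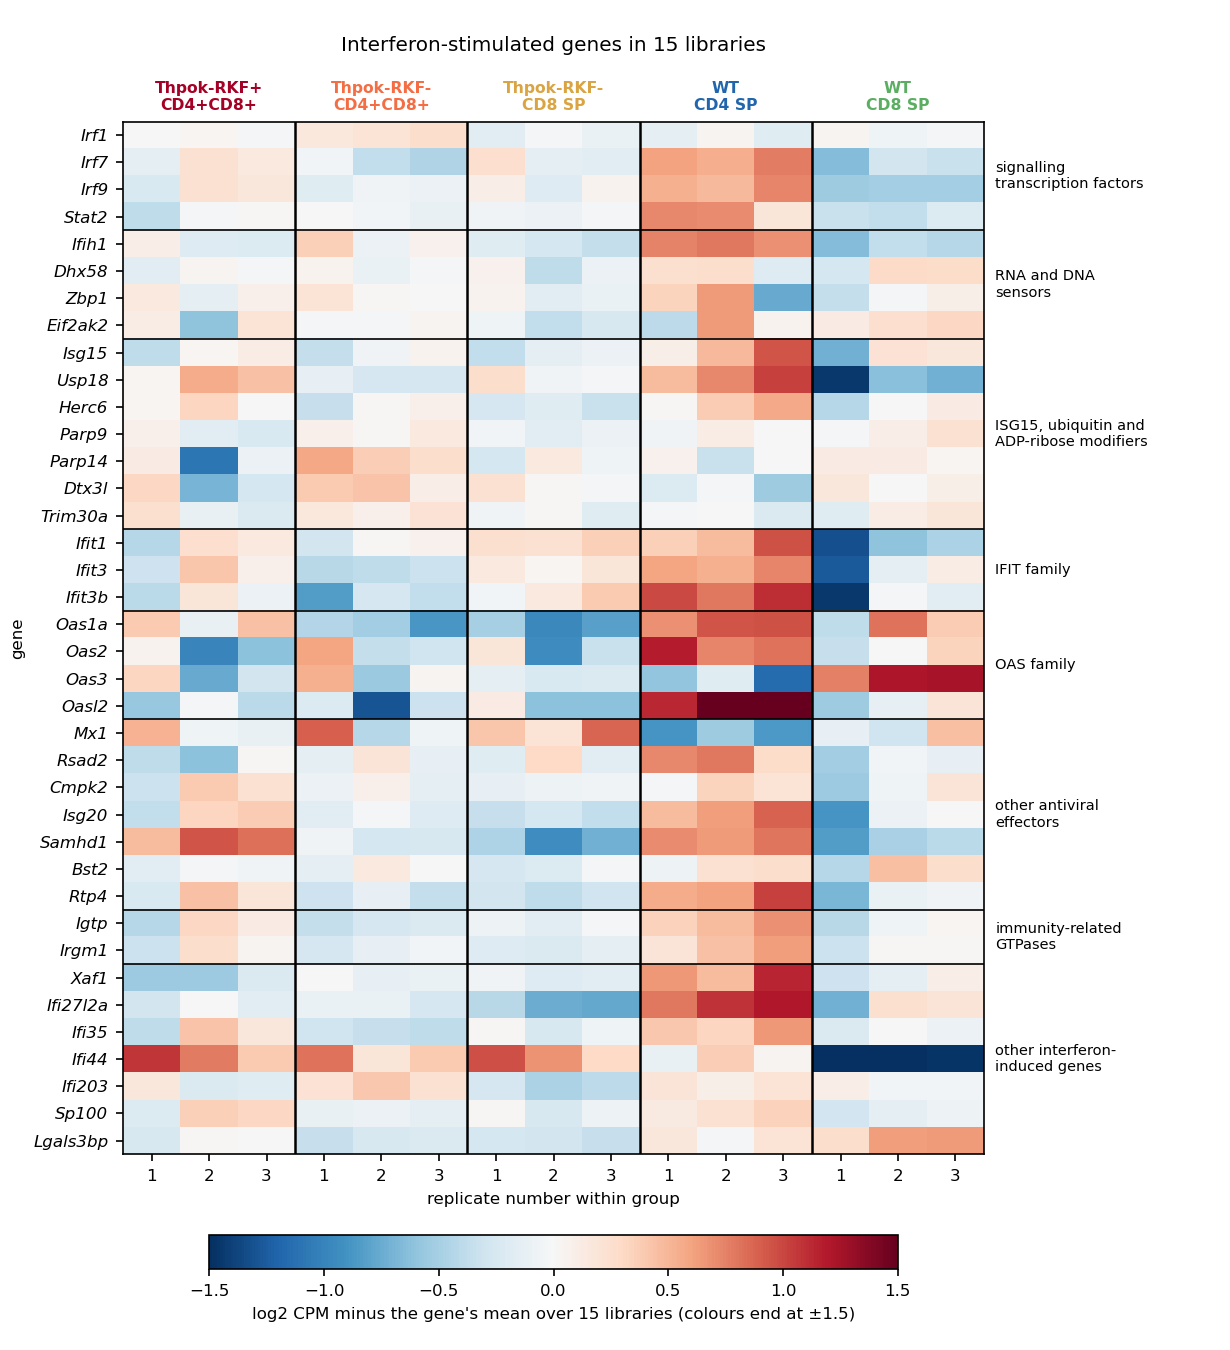
Level of each of the 38 genes in each of the 15 libraries, as log2 CPM minus the gene's mean over all libraries, ordered by role from top to bottom and by group from left to right. Red fills most of the 3 WT CD4 SP columns, whose medians are 0.342, 0.476 and 0.596. Mx1, Oas3, Dtx3l and Trim30a lie below their own means in all 3 of these columns. Ifi44, Irf1 and Parp14 are among the genes with mixed signs there.

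Among the transcription factors that carry the interferon signal, Irf9, the DNA-binding subunit of the type I complex, had 289, 397 and 379 CPM in Thpok-RKF+ CD4+CD8+, 299, 326 and 318 CPM in Thpok-RKF- CD4+CD8+ and 363, 295 and 349.7 CPM in Thpok-RKF- CD8 SP cells. In wild-type cells it had 491, 475 and 562 CPM in WT CD4 SP and 233, 237 and 237 CPM in WT CD8 SP. Irf9 thus had 3 levels that did not overlap, with WT CD4 SP on top, the mutant groups between and WT CD8 SP lowest. Irf7, which amplifies interferon production, had 316, 406 and 385 CPM in Thpok-RKF+ CD4+CD8+, 337, 268 and 254 CPM in Thpok-RKF- CD4+CD8+, 413, 316 and 312 CPM in Thpok-RKF- CD8 SP, 528, 505 and 592 CPM in WT CD4 SP and 221, 286 and 275 CPM in WT CD8 SP. The lowest WT CD4 SP library exceeded the highest of the other 12. The mutant groups overlapped each other. WT CD8 SP overlapped Thpok-RKF- CD4+CD8+ and lay below all libraries of Thpok-RKF+ CD4+CD8+ and Thpok-RKF- CD8 SP. Stat2, a subunit of the type I complex, had 107, 137 and 141 CPM in Thpok-RKF+ CD4+CD8+, 140.3, 136 and 129 CPM in Thpok-RKF- CD4+CD8+, 134, 131 and 136 CPM in Thpok-RKF- CD8 SP, 229.6, 228 and 158 CPM in WT CD4 SP and 111, 108 and 121 CPM in WT CD8 SP. Replicate 3 of WT CD4 SP was nearer to the other groups than to its own for this gene. Irf1, a transcription factor induced through the gamma-activated site, varied little, with group means of 295 to 366 CPM, and its highest mean was in Thpok-RKF- CD4+CD8+ cells.

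Of the sensors, Ifih1, which encodes the double-stranded RNA sensor MDA5, was the one that passed the test between groups in the fit of all 15 libraries. It had 23.8, 19.4 and 19.2 CPM in Thpok-RKF+ CD4+CD8+, 28.4, 20.9 and 23.2 CPM in Thpok-RKF- CD4+CD8+, 19.5, 18.5 and 17.3 CPM in Thpok-RKF- CD8 SP, 37.2, 38.3 and 35.7 CPM in WT CD4 SP and 14.1, 17.2 and 16.5 CPM in WT CD8 SP. Dhx58, which encodes the regulator LGP2, the nucleic acid sensor gene Zbp1 and the kinase gene Eif2ak2 passed the test in no comparison between groups in that fit. Zbp1 had 262, 325 and 124 CPM in WT CD4 SP, a spread wider than the range of its other 4 group means (196 to 219 CPM). Without WT CD4 SP replicate 3, the lowest of these, Zbp1 fell in Thpok-RKF- CD8 SP against WT CD4 SP (-0.60, adjusted p = 0.0161) and rose in WT CD4 SP against WT CD8 SP (0.62, adjusted p = 0.0114).

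Usp18, which removes ISG15 from proteins and damps the type I receptor, had 85.8, 124 and 114 CPM in Thpok-RKF+ CD4+CD8+, 77.3, 70.8 and 70.4 CPM in Thpok-RKF- CD4+CD8+, 101, 81.5 and 82.7 CPM in Thpok-RKF- CD8 SP, 117, 138 and 171 CPM in WT CD4 SP and 30.9, 54.5 and 50.9 CPM in WT CD8 SP. All 3 WT CD8 SP libraries lay below the other 12, as they did also for Irf9, Ifih1, Ifit1 and Ifi44 (3.13% of all tested genes). Isg15, the ubiquitin-like modifier itself, had 39.6, 52.4 and 55.8 CPM in Thpok-RKF+ CD4+CD8+, 40.1, 49.7 and 53.5 CPM in Thpok-RKF- CD4+CD8+, 39.8, 46.5 and 48.6 CPM in Thpok-RKF- CD8 SP, 54.8, 71.9 and 99.4 CPM in WT CD4 SP and 31.2, 59.7 and 58.0 CPM in WT CD8 SP. Library 1 was the lowest of every group. The WT CD4 SP libraries lay above all libraries of both Thpok-RKF- groups and overlapped Thpok-RKF+ CD4+CD8+ and WT CD8 SP. The groups other than WT CD4 SP overlapped each other. Without the 5 libraries numbered 1, Isg15 fell in Thpok-RKF+ CD4+CD8+ (-0.66, adjusted p = 0.0323), Thpok-RKF- CD4+CD8+ (-0.73, adjusted p = 0.0102) and Thpok-RKF- CD8 SP (-0.85, adjusted p = 0.00433) against WT CD4 SP, and it rose in WT CD4 SP against WT CD8 SP (0.57, adjusted p = 0.0282). The other 5 genes of this class (Herc6, Parp9, Parp14, Dtx3l and Trim30a) encode ubiquitin or ADP-ribose modifiers, and of these Herc6 alone passed the test in the fit of all libraries, in 1 comparison.

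The IFIT proteins bind viral RNA and block its translation. Ifit1 had 169, 271 and 253 CPM in Thpok-RKF+ CD4+CD8+, 188, 231 and 239 CPM in Thpok-RKF- CD4+CD8+, 269, 266 and 292 CPM in Thpok-RKF- CD8 SP, 291, 317 and 443 CPM in WT CD4 SP and 91.4, 149.5 and 164 CPM in WT CD8 SP. Ifit3 had 89.4, 149 and 118 CPM in Thpok-RKF+ CD4+CD8+, 83.8, 85.4 and 89.2 CPM in Thpok-RKF- CD4+CD8+, 124, 114 and 126 CPM in Thpok-RKF- CD8 SP, 168, 162 and 185 CPM in WT CD4 SP and 46.3, 102 and 119.8 CPM in WT CD8 SP. Ifit3b had 16.4, 24.8 and 20.5 CPM in Thpok-RKF+ CD4+CD8+, 12.2, 18.3 and 16.9 CPM in Thpok-RKF- CD4+CD8+, 21.2, 24.2 and 28.7 CPM in Thpok-RKF- CD8 SP, 43.4, 37.95 and 47.2 CPM in WT CD4 SP and 7.98, 21.5 and 19.6 CPM in WT CD8 SP. All 3 genes were highest on average in WT CD4 SP, and replicate 1 of WT CD8 SP was the lowest of the 15 libraries for each. Ifit3 and Ifit3b are near-identical copies, so their separate values are uncertain.

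The OAS proteins sense double-stranded RNA, and OAS1A, OAS2 and OAS3 then make the activator of RNase L. Oasl2, a relative, had 14.3, 20.9 and 16.01 CPM in Thpok-RKF+ CD4+CD8+, 18.4, 8.60 and 17.0 CPM in Thpok-RKF- CD4+CD8+, 23.2, 13.8 and 13.9 CPM in Thpok-RKF- CD8 SP, 46.5, 66.7 and 65.0 CPM in WT CD4 SP and 14.65, 19.5 and 24.3 CPM in WT CD8 SP. WT CD4 SP stood alone for this gene, and the other 4 groups overlapped. The other OAS genes followed different orders. Oas1a averaged 4.20 to 8.50 CPM in the mutant groups, 12.95 ± 1.30 CPM in WT CD4 SP (SD, n = 3) and 9.05 ± 3.55 CPM in WT CD8 SP. Oas2 averaged 43.7 ± 7.47 CPM in WT CD4 SP and 16.9 to 23.9 CPM in the other groups. Oas3 was turned round: it had 52.5, 24.9 and 34.6 CPM in Thpok-RKF+ CD4+CD8+, 60.98, 28.7 and 43.3 CPM in Thpok-RKF- CD4+CD8+, 37.9, 35.9 and 36.3 CPM in Thpok-RKF- CD8 SP, 28.0, 37.2 and 18.9 CPM in WT CD4 SP and 70.9, 97.9 and 99.2 CPM in WT CD8 SP. Oas3 and Lgals3bp were the 2 genes for which WT CD8 SP lay above all 12 other libraries (6.72% of all genes). Oas2 and Oas3 are direct neighbours on chromosome 5, with no coding gene between them in RefSeq. Oas1a belongs to a cluster of close copies, so its count is uncertain.

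**Figure D2:**
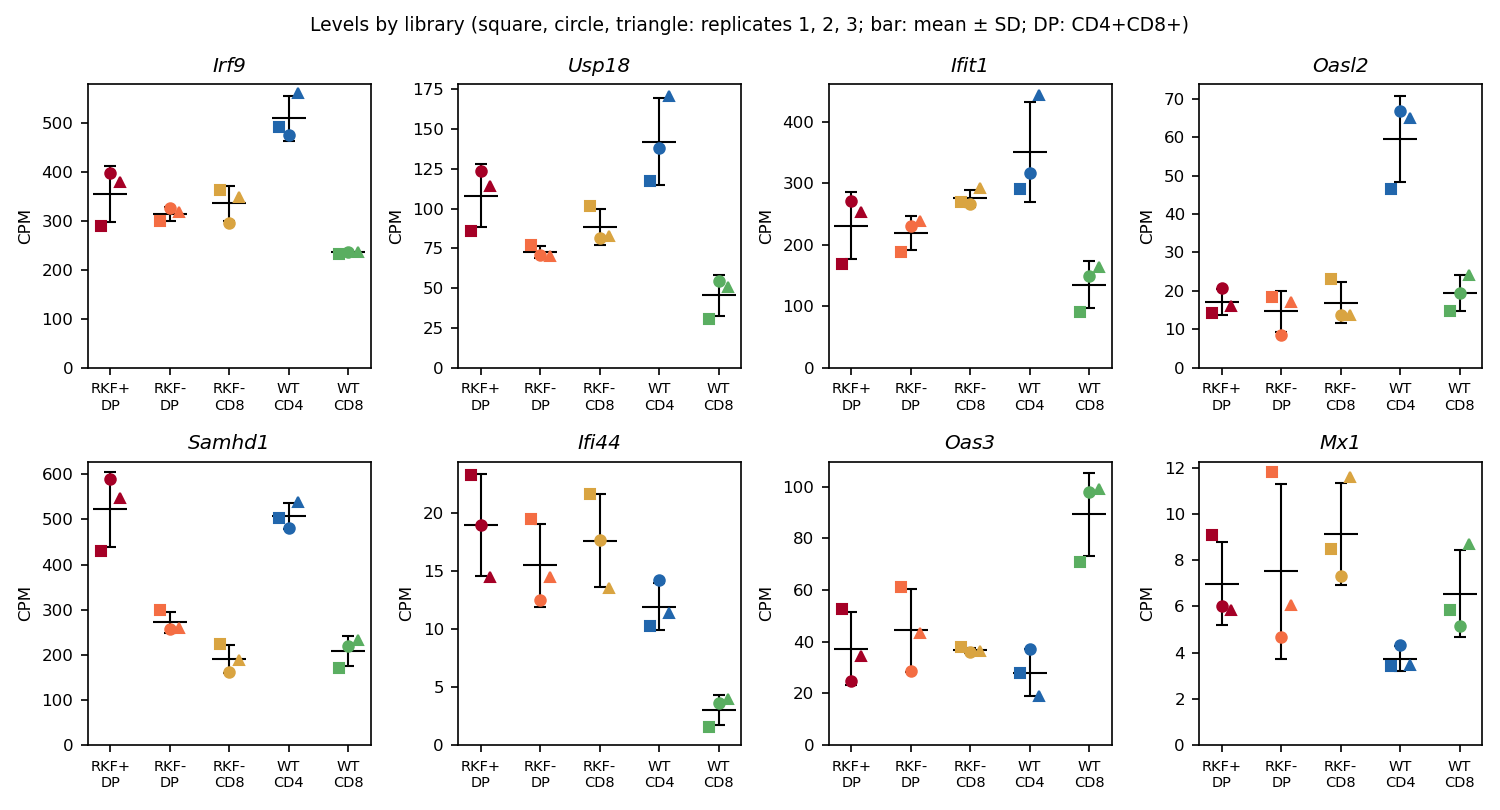
CPM of 8 genes in each library (square, circle and triangle for replicates 1, 2 and 3) with the mean ± SD of each group of 3. Irf9, Usp18, Ifit1 and Oasl2 are highest on average in WT CD4 SP, Samhd1 is as high in Thpok-RKF+ CD4+CD8+ as in WT CD4 SP, Ifi44 is lowest and Oas3 highest in WT CD8 SP, and Mx1 is lowest in WT CD4 SP.

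Samhd1, which encodes an enzyme that depletes deoxynucleotides and so restricts viral reverse transcription, had 429, 590.4 and 547 CPM in Thpok-RKF+ CD4+CD8+ and 298, 257 and 260.3 CPM in Thpok-RKF- CD4+CD8+. It had 224, 161 and 188 CPM in Thpok-RKF- CD8 SP, 504, 481 and 539 CPM in WT CD4 SP and 172, 220.3 and 233 CPM in WT CD8 SP. The 6 Thpok-RKF+ CD4+CD8+ and WT CD4 SP libraries overlapped and lay above the other 9. Mx1, an antiviral GTPase gene that is defective in most laboratory strains, had 9.07, 6.03 and 5.85 CPM in Thpok-RKF+ CD4+CD8+, 11.8, 4.68 and 6.06 CPM in Thpok-RKF- CD4+CD8+, 8.46, 7.32 and 11.6 CPM in Thpok-RKF- CD8 SP, 3.40, 4.35 and 3.45 CPM in WT CD4 SP and 5.82, 5.14 and 8.69 CPM in WT CD8 SP. It was the reverse of Oasl2, with WT CD4 SP alone at the bottom. Bst2 (tetherin), which holds budding virus at the cell surface, had 70.7, 77.7 and 75.9 CPM in Thpok-RKF+ CD4+CD8+, 70.7, 86.8 and 79.2 CPM in Thpok-RKF- CD4+CD8+, 66.2, 68.3 and 76.9 CPM in Thpok-RKF- CD8 SP, 74.5, 91.7 and 94.4 CPM in WT CD4 SP and 58.4, 108 and 94.1 CPM in WT CD8 SP. Its groups overlapped. Isg20, an RNA exonuclease gene, and Rtp4, whose product inhibits viral RNA synthesis, averaged 87.8 ± 12.9 and 235 ± 43.6 CPM in WT CD4 SP, above every other library. Rsad2 (viperin) and Cmpk2, which are direct neighbours on chromosome 12, differed: Rsad2 averaged 18.3 ± 3.40 CPM in WT CD4 SP and 9.69 to 11.96 CPM elsewhere, while the group means of Cmpk2 stayed between 39.4 and 48.1 CPM.

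The immunity-related GTPases act on vacuoles that hold intracellular microbes. Igtp had 276, 459 and 403 CPM in Thpok-RKF+ CD4+CD8+, 289, 311 and 319 CPM in Thpok-RKF- CD4+CD8+, 353, 333 and 367 CPM in Thpok-RKF- CD8 SP, 472, 515 and 594 CPM in WT CD4 SP and 278, 356 and 379 CPM in WT CD8 SP. Irgm1 had 193, 290.2 and 248 CPM in Thpok-RKF+ CD4+CD8+, 202, 222 and 235 CPM in Thpok-RKF- CD4+CD8+, 210.0, 207 and 219 CPM in Thpok-RKF- CD8 SP, 275, 328 and 372 CPM in WT CD4 SP and 192, 244 and 245 CPM in WT CD8 SP. Both were highest on average in WT CD4 SP, though Irgm1 in Thpok-RKF+ CD4+CD8+ replicate 2 exceeded the lowest WT CD4 SP library.

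Among the remaining interferon-induced genes, Xaf1, a pro-apoptotic factor gene, had 50.3, 50.0 and 62.9 CPM in Thpok-RKF+ CD4+CD8+, 73.4, 67.3 and 68.6 CPM in Thpok-RKF- CD4+CD8+, 70.5, 63.9 and 65.7 CPM in Thpok-RKF- CD8 SP, 115, 102 and 162 CPM in WT CD4 SP and 59.1, 66.0 and 78.6 CPM in WT CD8 SP. Ifi27l2a, which encodes a small membrane protein of the interferon response, had 151, 184 and 165 CPM in Thpok-RKF+ CD4+CD8+, 171, 172 and 154 CPM in Thpok-RKF- CD4+CD8+, 137, 109.7 and 108 CPM in Thpok-RKF- CD8 SP, 317, 389.5 and 421 CPM in WT CD4 SP and 111, 217 and 210.0 CPM in WT CD8 SP. For both genes WT CD4 SP stood alone. Ifi44 had 23.3, 18.98 and 14.5 CPM in Thpok-RKF+ CD4+CD8+, 19.5, 12.5 and 14.5 CPM in Thpok-RKF- CD4+CD8+, 21.6, 17.7 and 13.6 CPM in Thpok-RKF- CD8 SP, 10.2, 14.2 and 11.3 CPM in WT CD4 SP and 1.54, 3.61 and 3.96 CPM in WT CD8 SP. WT CD8 SP was apart here, and the highest means were in the mutant groups. Ifi203, a gene of the nucleic acid-binding HIN-200 family, had 127, 97.6 and 99.7 CPM in Thpok-RKF+ CD4+CD8+, 132, 149.8 and 133 CPM in Thpok-RKF- CD4+CD8+, 95.1, 81.5 and 86.3 CPM in Thpok-RKF- CD8 SP, 129.8, 121 and 131 CPM in WT CD4 SP and 121, 110.0 and 110.3 CPM in WT CD8 SP. Lgals3bp, which encodes a secreted galectin-binding protein, had 229, 274 and 272 CPM in Thpok-RKF+ CD4+CD8+, 212, 229 and 233 CPM in Thpok-RKF- CD4+CD8+, 225, 223 and 213 CPM in Thpok-RKF- CD8 SP, 303, 266 and 311 CPM in WT CD4 SP and 324, 416 and 422 CPM in WT CD8 SP. Ifi203 was lowest in Thpok-RKF- CD8 SP without overlap, and Lgals3bp was highest in WT CD8 SP. Sp100, a nuclear body protein gene, and Ifi35 had their highest means in WT CD4 SP, at 1598 ± 117 and 145 ± 17.9 CPM.

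In wild-type cells, more of the 38 genes passed as higher in CD4 SP than as lower, each against CD8 SP thymocytes. In WT CD4 SP against WT CD8 SP, 20 of the 38 genes rose and 2 fell at an adjusted p below 0.05 (edgeR quasi-likelihood test, Benjamini-Hochberg over all 16550 genes), where 7.72% of all genes rose and 10.3% fell. The median log2 fold change was 0.582 for the 38 genes, 10 of which had a negative one, and -0.0331 for all genes. All 3 IFIT genes and both GTPases rose, as did 3 of 4 transcription factors, 4 of 7 other antiviral effectors and 5 of 7 remaining interferon-induced genes. Irf9 rose by 1.11 ± 0.12 on the log2 scale (SE, adjusted p = 2.44e-05), Samhd1 by 1.28 ± 0.15 (adjusted p = 4.69e-05), Ifih1 by 1.22 ± 0.15 (adjusted p = 7.32e-05) and Usp18 by 1.64 ± 0.21 (adjusted p = 8.43e-05). The largest fold change was that of Ifi44, at 1.97 ± 0.32. The rises of Irf7 (1.06), Stat2 (0.86), Ifit1 (1.38), Ifit3 (0.94), Ifit3b (1.39), Oasl2 (1.61), Isg20 (0.94), Rtp4 (1.00), Xaf1 (0.89) and Ifi27l2a (1.07) also held whichever of the 6 libraries was left out. Oas3 fell by 1.67 ± 0.31 (adjusted p = 0.00178), and this too held. Calls that were lost without at least 1 library were those of Rsad2 (0.83), Igtp (0.64), Irgm1 (0.52) and Sp100 (0.41), whose highest adjusted p was 0.078, 0.0535, 0.0967 and 0.104 without WT CD8 SP replicate 1. When all 5 libraries numbered 1 were left out, Rsad2 was lost (adjusted p = 0.149) and Isg15 gained, and 20 genes rose and 2 fell. Over all genes that fit called 3003, against 2981 in the full model. Oas2 did not pass in the full model but rose by DESeq2 (0.92, adjusted p = 0.0286) and without the low-count filter (adjusted p = 0.0165). It also rose with a replicate block (0.036) and with only the 2 groups fitted (0.0161). Sp100 (0.0769) and Lgals3bp (0.0655) were lost without the filter, and Lgals3bp also with only the 2 groups fitted (0.0841). Ifi35 (0.56) reached an adjusted p of 0.0937 without WT CD4 SP replicate 3, and Lgals3bp (-0.40) one of 0.151 without WT CD8 SP replicate 3. Of the 6 fits that each left out 1 library, Sp100 and Lgals3bp were lost in 5 and Irgm1 and Ifi35 in 4. Rsad2 was lost in 3 and Igtp in 1. The hosts of the 2 groups differ (B2m-/- against I-Ab-/-), so lineage and host cannot be told apart. Summed CPM of 8 late mature thymocyte markers was 6030 to 6210 in WT CD4 SP and 4490 to 5080 in WT CD8 SP, with 4 markers higher and 2 lower, and the part of maturity in the result was not tested.

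**Figure D3:**
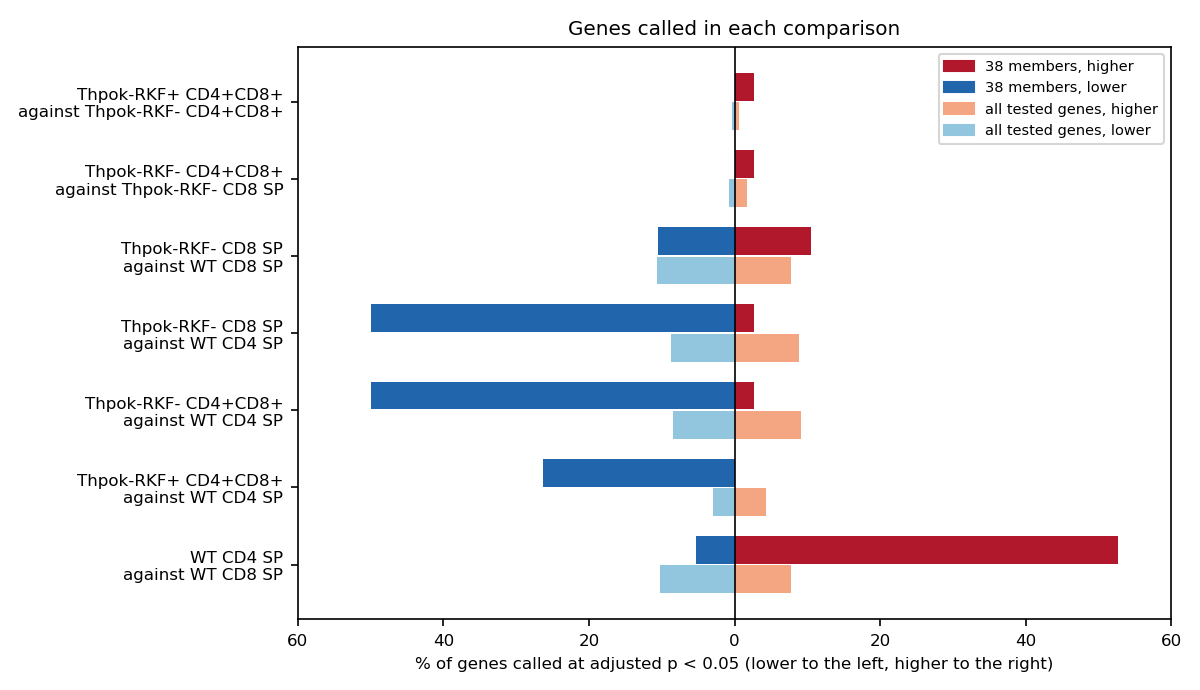
Share of the 38 genes (dark red and dark blue bars) and of all 16550 tested genes (light bars) called higher (right) or lower (left) at an adjusted p below 0.05 in each comparison. The dark bars exceed the light ones most in the 3 comparisons of mutant cells with WT CD4 SP, to the left, and in WT CD4 SP against WT CD8 SP, to the right.

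Mutant CD8 SP cells, which arose in the same kind of host as WT CD4 SP cells, had lower levels of many of these genes. Genotype and sorted population both differ between these groups and cannot be told apart. In Thpok-RKF- CD8 SP against WT CD4 SP, 1 gene rose and 19 fell, where 8.91% of all genes rose and 8.75% fell. The median log2 fold change was -0.571 for the 38 genes and -0.00411 for all genes. Samhd1 fell by 1.41 ± 0.15 (adjusted p = 2.13e-05), Ifi27l2a by 1.67 ± 0.21 (adjusted p = 7.55e-05), Ifih1 by 1.01 ± 0.15 (adjusted p = 0.000354) and Oasl2 by 1.81 ± 0.30 (adjusted p = 0.000867). Irf7 (-0.64), Irf9 (-0.60), Stat2 (-0.62), Oas1a (-1.62), Isg20 (-0.99), Rtp4 (-1.07), Xaf1 (-0.92) and Ifi203 (-0.54) also fell, and all 12 of these calls held whichever library was left out. The IFIT genes did not pass in this fit (Ifit1 -0.34, Ifit3 -0.50, Ifit3b -0.79), but all 3 fell without the 5 libraries numbered 1: Ifit1 by 0.45 (adjusted p = 0.0455), Ifit3 by 0.54 (adjusted p = 0.0234) and Ifit3b by 0.69 (adjusted p = 0.0207). Ifit3b also passed by DESeq2 (adjusted p = 0.0402) and, like Ifit3, when only the 2 groups were fitted. Without the libraries numbered 1, 25 of the 38 genes were called, 1 higher and 24 lower, with 3531 calls over all genes against 2922 in the full model. Besides the IFIT genes, Sp100 (-0.45, adjusted p = 0.00246) and Isg15 were gained in that fit, both lower. The only rise was that of Mx1 (1.29 ± 0.34, adjusted p = 0.0185), which was lost without Thpok-RKF- CD8 SP replicate 3 (adjusted p = 0.0811), WT CD4 SP replicate 1 or WT CD4 SP replicate 3. Without WT CD4 SP replicate 3 the calls of Usp18 (-0.68), Herc6 (-0.59), Igtp (-0.59) and Irgm1 (-0.62) were lost, at adjusted p values of 0.118, 0.139, 0.0875 and 0.0509. Oas2 (-1.21) and Ifi35 (-0.56) were lost without Thpok-RKF- CD8 SP replicate 2, at 0.0885 and 0.117, and Lgals3bp (-0.42) without replicate 3, at 0.0837. Over the 6 fits that each left out 1 library, Herc6 was lost in 5 and Igtp and Lgals3bp in 4 each. Usp18, Oas2 and Ifi35 were lost in 3 each, and Irgm1 in 1.

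Thpok-RKF- CD4+CD8+ cells differed from WT CD4 SP cells in the same direction, and here too genotype and sorted population both differ. In Thpok-RKF- CD4+CD8+ against WT CD4 SP, 1 gene rose and 19 fell, where 9.15% of all genes rose and 8.42% fell, with a median log2 fold change of -0.61 for the 38 genes and 0.0133 for all genes. All 3 IFIT genes fell, as did both GTPases and Irf7, Irf9 and Stat2. Oasl2 fell by 2.02 ± 0.30 (adjusted p = 0.000648), Irf7 by 0.92 ± 0.15 (adjusted p = 0.00125), Samhd1 by 0.90 ± 0.15 (adjusted p = 0.00145) and Ifi27l2a by 1.18 ± 0.21 (adjusted p = 0.00183). Irf9 (-0.70), Stat2 (-0.60), Ifih1 (-0.62), Usp18 (-0.96), Ifit3b (-1.44), Oas1a (-1.47), Rtp4 (-1.01), Igtp (-0.78), Xaf1 (-0.86) and Ifi35 (-0.81) fell as well, and these 14 calls held whichever library was left out. Without WT CD4 SP replicate 3, the falls of Ifit1 (-0.68), Ifit3 (-0.995), Isg20 (-0.80) and Irgm1 (-0.56) were lost, at adjusted p values of 0.192, 0.0533, 0.09 and 0.0822. With each of the 6 libraries left out in turn, Ifit1 was lost in 5 fits and Ifit3, Isg20 and Irgm1 in 3 each. Irf1 was the only gene that rose (0.31 ± 0.09, adjusted p = 0.0265), and without the same library its adjusted p was 0.154. Lgals3bp (-0.39) had an adjusted p of 0.102 without Thpok-RKF- CD4+CD8+ replicate 1. Irf1 and Lgals3bp were each lost in 5 of the 6 fits. Without the 5 libraries numbered 1, 0 genes rose and 22 fell, with Isg15, Oas2 (-1.10, adjusted p = 0.0114) and Sp100 (-0.40, adjusted p = 0.00551) gained and Irf1 lost (adjusted p = 0.0538). Over all genes that fit called 3331, against 2908 in the full model.

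In Thpok-RKF+ cells 10 of the 38 genes were called against WT CD4 SP, all of them lower. In Thpok-RKF+ CD4+CD8+ against WT CD4 SP, 0 of the 38 genes rose and 10 fell, where 4.36% of all genes rose and 2.91% fell. By DESeq2 0 of the 38 genes rose and 12 fell at an adjusted p below 0.05. An unadjusted edgeR p below 0.05 was found for 19 of the 38 in either direction. The share of all genes at that cut was not determined. The median log2 fold change was -0.375 for the 38 genes and 0.00528 for all genes. Xaf1 fell by 1.21 ± 0.17 (adjusted p = 0.000275), Oasl2 by 1.80 ± 0.30 (adjusted p = 0.0015), Ifi27l2a by 1.17 ± 0.21 (adjusted p = 0.00217) and Ifih1 by 0.83 ± 0.15 (adjusted p = 0.00272). With Stat2 (-0.68) these were the 5 falls that held whichever library was left out, although Stat2 had an adjusted p of 0.143 without the 5 libraries numbered 1. Without those libraries 9 genes fell, with Isg15 gained and Stat2 and Rsad2 lost. Over all genes that fit called 1009, against 1202 in the full model. Irf7 (-0.55) and Irf9 (-0.52) were lost without WT CD4 SP replicate 3, at adjusted p values of 0.1 and 0.0704. Ifit3b (-1.06), Oas2 (-1.37) and Rsad2 (-0.92) were lost without Thpok-RKF+ CD4+CD8+ replicate 1 (0.137), Thpok-RKF+ CD4+CD8+ replicate 3 (0.0834) and WT CD4 SP replicate 2 (0.0779). When each of the 6 libraries was left out in turn, Ifit3b was lost in 5 fits and Irf7 and Rsad2 in 4 each. Oas2 was lost in 3 and Irf9 in 1. Samhd1 did not pass the test, with a log2 fold change of 0.04 ± 0.15. The 3 comparisons with WT CD4 SP share its libraries, so their values stand side by side and do not support each other. In all 3, genotype and sorted population both differ and cannot be told apart. The difference between the CD4+CD8+ groups is tested directly further on. Slfn1, a late maturation marker, was lower than in WT CD4 SP in all 3 mutant groups, while 1 or 2 of the 8 markers on that list were higher and 2 to 4 lower in all, and the part of maturity was not tested.

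**Figure D4:**
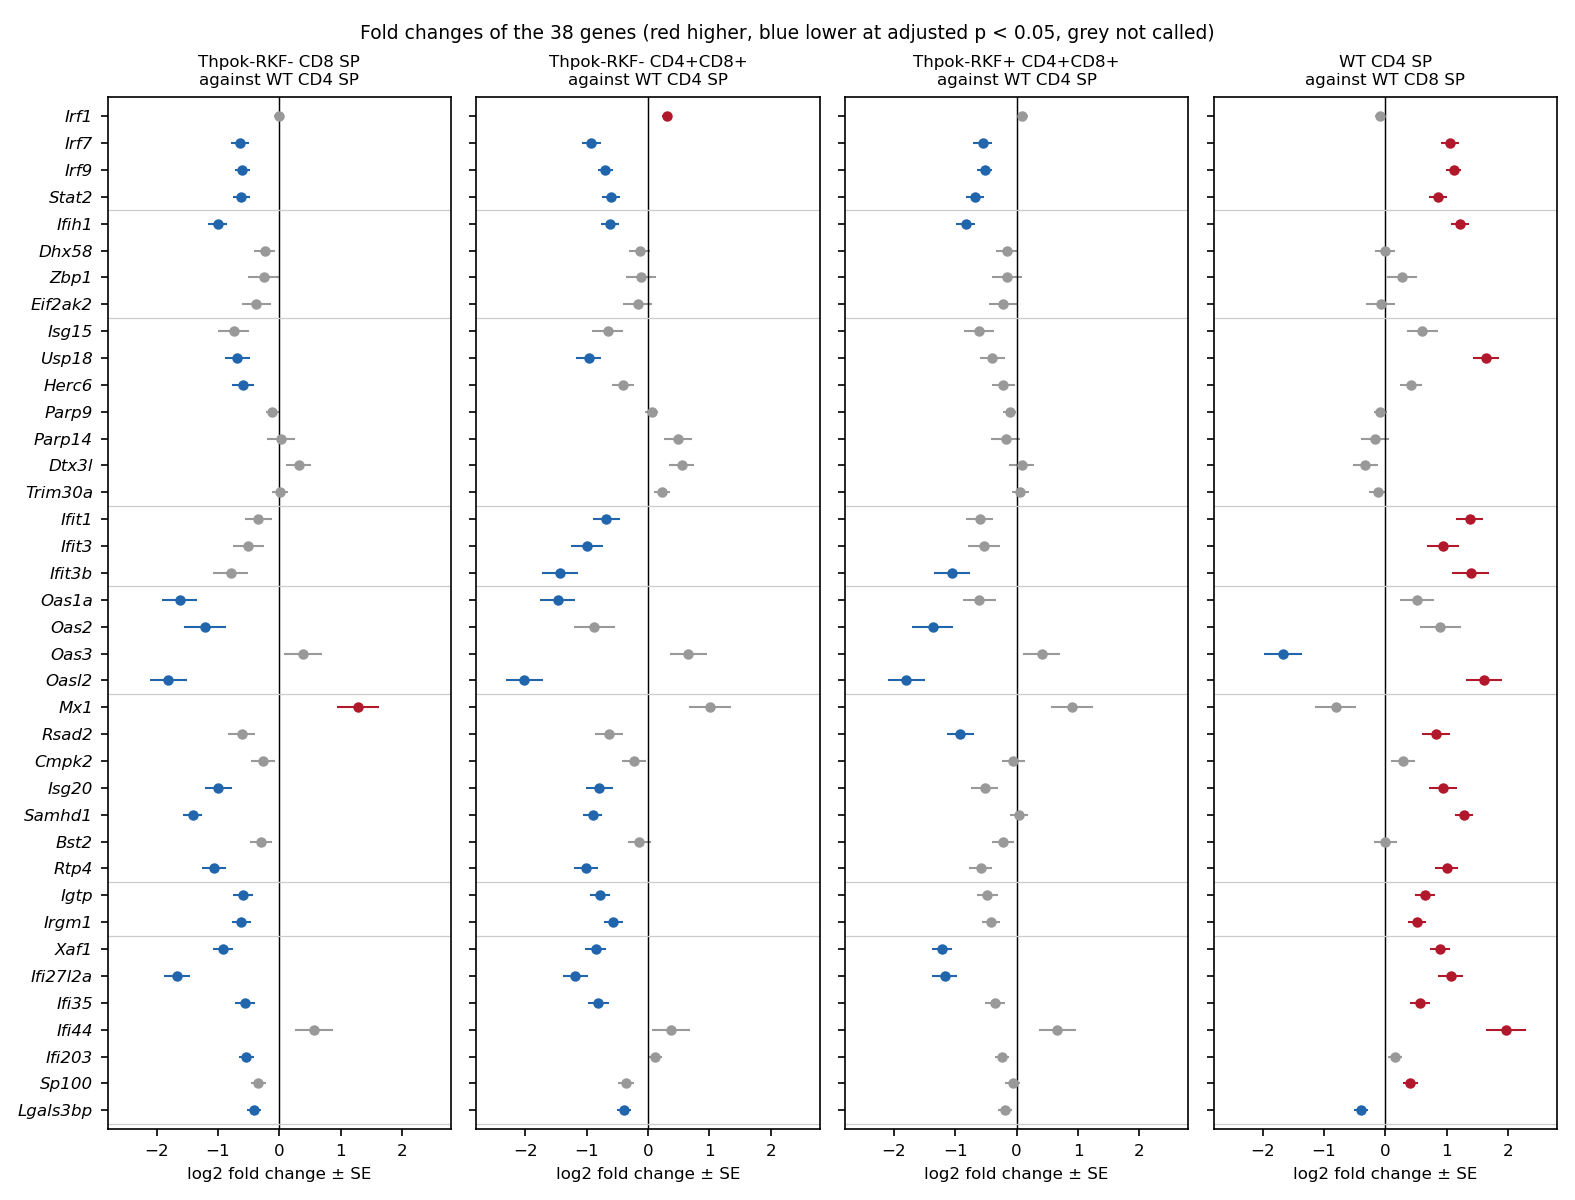
Log2 fold change ± SE of each of the 38 genes in 4 comparisons, in the order of roles, with red for higher, blue for lower and grey for genes that did not pass the test. Most points lie left of 0 in the 3 comparisons of mutant cells with WT CD4 SP, and Oasl2 lies between -1.80 and -2.02 in them, whereas Samhd1 is at 0.04 in the Thpok-RKF+ panel.

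Samhd1 was the only one of the 38 genes that passed the test between the CD4+CD8+ groups. In Thpok-RKF+ CD4+CD8+ against Thpok-RKF- CD4+CD8+, the only difference named by the labels is Thpok-RKF, and 1 of the 38 genes rose and 0 fell, where 0.586% of all genes rose and 0.375% fell. Samhd1 rose by 0.94 ± 0.15 (adjusted p = 0.00796), with 429 to 590.4 CPM in Thpok-RKF+ against 257 to 298 CPM in Thpok-RKF- cells. The call held whichever of the 6 libraries was left out, at an adjusted p of 0.0482 or less, but the adjusted p was 0.051 when only these 2 groups were fitted. By DESeq2 Samhd1 was likewise the only gene of the 38 called. In the full model, 12 of the 38 genes had an unadjusted edgeR p below 0.05, and the share of all genes at that cut was not determined. The count rested on 1 library: without Thpok-RKF+ CD4+CD8+ replicate 1, 9 of the 38 genes passed, 6 higher and 3 lower. They were Samhd1, Usp18 (0.72, adjusted p = 0.0374), Rtp4 (0.59, 0.0486), Igtp (0.50, 0.0269), Ifi35 (0.66, 0.00681) and Sp100 (0.46, 0.00772) among the higher ones. Parp14 (-0.90, 0.0301), Dtx3l (-0.76, 0.0164) and Ifi203 (-0.47, 0.0157) were lower. Without all 5 libraries numbered 1 there were also 9, of which 8 were higher and 1 lower, with Irf7 (0.60, adjusted p = 0.00554) and Ifit3 (0.61, 0.0268) in place of Parp14 and Dtx3l. Over all genes, 159 were called in the full model and 1677 without Thpok-RKF+ CD4+CD8+ replicate 1. That library had 11.2% of its reads outside annotated genes, against 5.28% and 5.65% in the others of its group, and 24.5 CPM of the macrophage gene Lyz2, against 0.194 and 0.876 CPM. The sum of 8 myeloid markers was 126 CPM in it and 84.3 and 89.3 CPM in the others, and the part of these differences in the result was not tested.

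Between the 2 Thpok-RKF- populations the genes were close. In Thpok-RKF- CD4+CD8+ against Thpok-RKF- CD8 SP, 1 of the 38 genes rose and 0 fell, where 1.72% of all genes rose and 0.719% fell. The gene was Ifi203 (0.66 ± 0.12, adjusted p = 0.00605), and its call held whichever library was left out. By DESeq2 3 genes rose and 0 fell. An unadjusted edgeR p below 0.05 was found for 6 of the 38 genes, and the share of all genes at that cut was not determined. Without the 5 libraries numbered 1, Samhd1 (0.58, adjusted p = 0.0134) and Ifi27l2a (0.59, adjusted p = 0.0108) rose as well. Over all genes that fit called 516, against 403 in the full model. A p above the threshold does not show that the other genes were equal: the median log2 fold change was 0.0761 and single genes ranged from -0.65 to 0.66.

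Mutant and wild-type CD8 SP cells differed in both directions, and the balance rested on the libraries numbered 1. In Thpok-RKF- CD8 SP against WT CD8 SP, 4 of the 38 genes rose and 4 fell, shares near those of all genes, of which 7.77% rose and 10.6% fell. The median log2 fold change was -0.0575 for the 38 genes. Ifi44 rose by 2.53 ± 0.33 (adjusted p = 6.95e-05), Usp18 by 0.96 ± 0.21 (adjusted p = 0.00392), Ifit1 by 1.03 ± 0.22 (adjusted p = 0.00425) and Irf9 by 0.51 ± 0.12 (adjusted p = 0.00851). Lgals3bp fell by 0.81 ± 0.12 (adjusted p = 0.000166) and Oas3 by 1.28 ± 0.31 (adjusted p = 0.00821). These 6 calls held whichever library was left out. Oas1a (-1.11) was lost without WT CD8 SP replicate 2 (adjusted p = 0.0915) or Thpok-RKF- CD8 SP replicate 2, and Ifi203 (-0.38) without any 1 of the 6 libraries (adjusted p up to 0.152). Without the 5 libraries numbered 1, 4 genes rose and 8 fell, with 3282 calls over all genes against 3044 in the full model. The genes gained were all lower: Ifi27l2a (-0.95, adjusted p = 0.000162), Bst2 (-0.45, adjusted p = 0.0246), Samhd1 (-0.35, adjusted p = 0.0299) and Oas2 (-0.76, adjusted p = 0.047). With all libraries, Irf7 did not pass in the full model but rose with RLE scaling (0.45, adjusted p = 0.0404). It also rose by DESeq2 (0.45, 0.0162) and with only the 2 groups fitted (0.45, 0.0424). Ifi27l2a fell by DESeq2 (-0.56, 0.0289) and without the low-count filter (-0.58, 0.0203). Genotype and host both differ between these groups and cannot be told apart.

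Libraries numbered 1 were compared with numbers 2 and 3, with the group in the model. This sets libraries against each other and not conditions. Of the 38 genes 0 were higher and 4 lower, where 3.79% of all genes were higher and 5.53% lower. By DESeq2 1 gene was higher and 10 were lower. An unadjusted edgeR p below 0.05 was found for 13 of the 38, and the share of all genes at that cut was not determined. Isg15 was lower by 0.52 ± 0.10 (log2 -0.52, adjusted p = 0.0112), and this held whichever library was left out. Ifit1 (-0.43), Irgm1 (-0.27) and Bst2 (-0.31) were lost without WT CD8 SP replicate 1, at adjusted p values of 0.068, 0.0767 and 0.108. Among the 15 fits that each left out 1 library, Bst2 was lost in 9, Irgm1 in 5 and Ifit1 in 1. In WT CD8 SP, number 1 was the lowest of the 3 libraries for 32 of the 38 genes. It was the lowest for 21 in Thpok-RKF+ CD4+CD8+, 13 in Thpok-RKF- CD4+CD8+, 7 in Thpok-RKF- CD8 SP and 18 in WT CD4 SP. Replicate 1 of WT CD8 SP was the lowest of all 15 libraries for 16 genes, and replicate 3 of WT CD4 SP the highest for 16. The shares of all genes in these orders of libraries were not determined, so they may reflect libraries as a whole. Replicate 3 of WT CD4 SP also had the least Zbtb7b of its group, at 27.4 CPM, against 64.0 and 79.1 CPM. Without it, 19 genes were called in the wild-type comparison, while 14, 14 and 7 were called in the comparisons of WT CD4 SP with, in this order, mutant CD8 SP cells and the Thpok-RKF- and Thpok-RKF+ CD4+CD8+ groups. Over all genes the same fits called 2170, 1779, 1488 and 850, against 2981, 2922, 2908 and 1202 in the full model, so calls fell over all genes as well.

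Across the 7 group comparisons, 10 of the 38 genes passed the test in none in the full model: Dhx58, Zbp1, Eif2ak2, Isg15, Parp9, Parp14, Dtx3l, Trim30a, Cmpk2 and Bst2. Under at least 1 alternative Isg15, Zbp1, Bst2, Parp14 and Dtx3l did pass in a comparison between groups, and the other genes named did not. Irf9 passed in 5, more than any other gene, and 9 genes passed in 4. Parp14, Dtx3l and Parp9 lie side by side on chromosome 16, and none of the 3 passed in the full model. Parp14 and Dtx3l had positive log2 fold changes in Thpok-RKF- CD4+CD8+ against WT CD4 SP (0.49 and 0.55), and Parp9 one of 0.06, against negative ones for 29 of the 38 genes. In that comparison Dtx3l passed as higher by DESeq2 (adjusted p = 0.0422), without the low-count filter (0.0302) and with only the 2 groups fitted (0.0421), and Parp14 passed with only the 2 groups fitted (0.0417). Trim30a, Ifi203, Oas1a, Ifit3 and Ifit3b have close copies in the mouse genome, and the strand setting of the counting is not given in the sources used here, so reads shared with copies or with overlapping genes on the other strand may be included.

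Of 32 other genes of the pathway, 25 passed the filter. The ligand genes Ifnb1, Ifna4, Ifnk and Ifnl3 were at 0 in all 15 libraries, and Ifng reached 0.183 CPM in WT CD4 SP replicate 3, 0.0233 CPM in WT CD8 SP replicate 3 and 0 elsewhere. Receptor and kinase genes were present in every library. Ifngr2, a chain of the interferon gamma receptor, rose in WT CD4 SP against WT CD8 SP (0.72 ± 0.11, adjusted p = 0.00053), and Ifnar2, a chain of the type I receptor, fell (-0.49 ± 0.10, adjusted p = 0.00491). In that comparison 5 pathway genes rose and 2 fell. Irf3 and the kinase gene Ikbke, which act between viral sensors and interferon genes, fell in Thpok-RKF- CD8 SP and in Thpok-RKF- CD4+CD8+ against WT CD4 SP, with log2 fold changes of -0.52 and -0.53 for Irf3 and -0.54 and -0.49 for Ikbke, which also fell in Thpok-RKF+ CD4+CD8+ (-0.41). In all, 2 pathway genes rose and 7 fell in Thpok-RKF- CD8 SP, 1 rose and 4 fell in Thpok-RKF- CD4+CD8+, and 2 rose and 2 fell in Thpok-RKF+ CD4+CD8+ cells against WT CD4 SP.

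The inhibitors of JAK signalling, Socs1 and Socs3, moved apart from the 38 genes. Socs1 had 144, 169 and 153 CPM in Thpok-RKF+ CD4+CD8+, 96.6, 107 and 103 CPM in Thpok-RKF- CD4+CD8+, 194, 219.6 and 220.3 CPM in Thpok-RKF- CD8 SP, 94.6, 77.3 and 86.1 CPM in WT CD4 SP and 75.4, 73.1 and 71.7 CPM in WT CD8 SP. Thpok-RKF- CD8 SP was highest without overlap. Socs1 rose in these cells against WT CD8 SP (1.52 ± 0.11, adjusted p = 3.66e-07) and against WT CD4 SP (1.30 ± 0.11, adjusted p = 1.38e-06). Socs3 rose by 2.34 ± 0.22 and 2.27 ± 0.22 in the same comparisons. Both fell in Thpok-RKF- CD4+CD8+ against Thpok-RKF- CD8 SP, by 1.05 ± 0.11 for Socs1 and 1.69 ± 0.22 for Socs3, the only 2 pathway genes called there. Socs1 was also the only pathway gene that passed in Thpok-RKF+ CD4+CD8+ against Thpok-RKF- CD4+CD8+ (0.60 ± 0.11, adjusted p = 0.0143). Of the other pathway genes called in Thpok-RKF- CD8 SP against WT CD8 SP, Ifngr2 and Jak2 rose and Irf8 and Ptpn6 fell.

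Markers of other cell types differed between libraries and groups, and their part in the results was not tested. Siglech, which defines plasmacytoid dendritic cells, was at 0 in every library but Thpok-RKF+ CD4+CD8+ replicate 1, which had 0.275 CPM. The summed CPM of the 6 markers on that list was 310 to 740 in the mutant groups, 40.4 to 48.0 in WT CD4 SP and 339 to 376 in WT CD8 SP, with Ccr9, which T cells also express, at 294 to 730 CPM outside WT CD4 SP and 18.7 to 24.1 CPM in it. Ms4a1, which defines B cells, was at 0 in all libraries, and the sum of the 6 B cell markers, mostly Ighm, was 362 to 993 CPM in the mutant groups, 543 to 809 CPM in WT CD4 SP and 843 to 1190 CPM in WT CD8 SP. Cd79b, a chain of the B cell receptor, had 4.31 to 13.2 CPM in the mutant groups, 0.434 to 1.68 CPM in WT CD4 SP and 39.1 to 42.8 CPM in WT CD8 SP. Ighd, an immunoglobulin gene, had 0.0432 to 6.67 CPM in the mutant groups, 0.0685 to 0.352 CPM in WT CD4 SP and 33.4 to 52.1 CPM in WT CD8 SP. Of the 4 B cell markers tested, these 2 were lower in WT CD4 SP and in Thpok-RKF- CD8 SP, each against WT CD8 SP, while Cd79b was higher in all 3 mutant groups and Ighd in Thpok-RKF+ CD4+CD8+ against WT CD4 SP. Ighd was also higher in Thpok-RKF+ than in Thpok-RKF- CD4+CD8+ cells (3.40 ± 0.73, adjusted p = 0.0432). The sum of the 8 myeloid markers was 56.1 to 126 CPM in the mutant groups, 65.9 to 110 CPM in WT CD4 SP and 79.6 to 108 CPM in WT CD8 SP, and Lyz2 had 28.3 CPM in WT CD4 SP replicate 1. C1qb, a macrophage gene, had 10.6 CPM in Thpok-RKF+ CD4+CD8+ replicate 1 and 6.30 CPM in WT CD4 SP replicate 1, and at most 1.21 CPM elsewhere. Of the 7 myeloid markers tested, 0 passed in the comparisons of mutant groups with WT CD4 SP, while Itgam passed in WT CD4 SP against WT CD8 SP, with 1.68 and 0.332 CPM. The sum of 8 immature thymocyte markers was 330 to 564 CPM in the mutant groups, 359 to 406 CPM in WT CD4 SP and 354 to 367 CPM in WT CD8 SP. Single markers differed more: Dntt had 107 to 197 CPM in Thpok-RKF- CD8 SP and 12.2 to 20.3 CPM in the WT groups. Against WT CD4 SP, 2 of the 8 were higher and 0 lower in Thpok-RKF- CD8 SP. The counts were 1 and 1 in Thpok-RKF- CD4+CD8+ and 0 and 0 in Thpok-RKF+ CD4+CD8+. In Thpok-RKF- CD8 SP against WT CD8 SP, 3 were higher and 1 lower.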

How the data were processed

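RNA sequencing libraries of 15 sorted mouse thymocyte samples were analysed, 3 in each of 5 groups taken from the titles. The deposited files are whole-number counts of reads per gene, not normalized, made with Trimmomatic, STAR and HTSeq on mm39 per the submitters' processing notes; libraries were made with a SMARTer kit and sequenced with paired reads per the labels' protocols. The counts were equal in the per-sample and series tables in all 15 libraries. In the series table, 3 columns of per-sample values that match no sample were not used. Summary lines that name no gene held 15.9% to 21.0% of reads and were left out. Gene totals of 37311823 to 48607260 reads leave little counting error at the levels given, and p-values rest on the spread between 3 libraries.

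All 15 libraries were fitted in 1 model of group means with edgeR 4.0.16 in R 4.3.3 (TMM scaling, filterByExpr with a minimum count of 10 and a minimum total of 15, quasi-likelihood test, Benjamini-Hochberg over 16550 genes, threshold 0.05). A standard error is the absolute log2 fold change over the square root of F. No 2 replicates agreed within counting noise. The steps were checked on simulated data. Alternatives were RLE scaling, no filter, DESeq2 1.42.0, a replicate block, only the 2 groups compared, and libraries left out. The members, gene lists, roles, motifs and tests were chosen with earlier results of these data known. Genes given in every library were a chosen set of at least 1 for nearly every role and, in each comparison, up to 4 called genes with the smallest adjusted p; Oas3, Zbp1 in WT CD4 SP and Socs1 were added after their values were seen. Promoter windows are those of RefSeq (GRCm38.p6), matched by symbol for 29 genes, and no coordinates were taken from the files' build. Some genes of the pathway and marker lists are not reported here by name.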

Additional observations from a re-analysis of the deposited data

How the results depend on the processing

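No gene of the 38 that passed the test in the full model or in an alternative changed direction in any alternative run. In Thpok-RKF+ CD4+CD8+ against Thpok-RKF- CD4+CD8+, where 1 of the 38 genes was called, 2 were called without the low-count filter, 9 without the 5 libraries numbered 1, 0 when only the 2 groups were fitted, and 1 to 9 with 1 library left out; over all genes the count of 159 became 428 without the filter, 676 by DESeq2, 240 with a replicate block, 52 with only the 2 groups and 1753 without the libraries numbered 1. In Thpok-RKF- CD4+CD8+ against Thpok-RKF- CD8 SP, with 1 called, DESeq2 called 3, the fit without the libraries numbered 1 called 3 and the fit of the 2 groups called 2. With 1 library left out, 13 to 19 genes were called in Thpok-RKF- CD8 SP against WT CD4 SP (20 in the full model) and 6 to 11 in Thpok-RKF+ CD4+CD8+ against WT CD4 SP (10 in the full model, and 6 with only the 2 groups fitted). For libraries numbered 1, the count of 4 became 7 with RLE scaling, 12 without the filter, 11 by DESeq2 and 2 to 9 with 1 library left out. The cause of these changes was not tested.

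The replicate numbers were not treated as pairs in the full model. In no comparison did the deviations of all same-numbered libraries correlate above 0.1 (the correlations ran from -0.05 to 0.221). This rule cannot exclude a shared effect of the number. Libraries numbered 1 correlated at 0.137 between the CD4+CD8+ groups, 0.221 between the Thpok-RKF- groups and 0.146 between the CD8 SP groups. The other correlations were at most 0.0961. With a replicate block, 15 of the 38 genes were called in Thpok-RKF+ CD4+CD8+ against WT CD4 SP, 22 in Thpok-RKF- CD8 SP and 23 in Thpok-RKF- CD4+CD8+ against WT CD4 SP, and 24 in the wild-type comparison, 1, 1 and 8 in the other 3, and no call was lost. Calls over all genes in the first 4 of these fits were 1533, 3687, 3713 and 3523, against 1202, 2922, 2908 and 2981 in the full model. Isg15 was called with the block in each of the 4, at -0.59 (adjusted p = 0.0223), -0.71 (0.00449), -0.63 (0.00937) and 0.61 (0.0095), and Dtx3l in Thpok-RKF- CD4+CD8+ against WT CD4 SP (0.55, 0.0468). Over all genes, DESeq2 called 1946 in Thpok-RKF+ CD4+CD8+ against WT CD4 SP, against 1202 in the full model, and fitting only the 2 groups called 581; DESeq2 called 782 in Thpok-RKF- CD4+CD8+ against Thpok-RKF- CD8 SP (403 in the full model) and 2857 for libraries numbered 1 (1543). With 1 library left out, calls over all genes ran from 50 to 1677 between the CD4+CD8+ groups, from 216 to 311 between the Thpok-RKF- groups, from 1613 to 2669, 1488 to 2626 and 832 to 1322 in mutant CD8 SP cells and the Thpok-RKF- and Thpok-RKF+ CD4+CD8+ groups against WT CD4 SP (full model 2922, 2908 and 1202), from 1908 to 2623 in the wild-type comparison (full model 2981) and from 387 to 2294 for libraries numbered 1.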
